A study of Rattus norvegicus with 12 samples.

Results

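The genes followed here are Rest, which encodes the repressor REST (also called NRSF), and the genes of its corepressor partners Rcor1, Sin3a, Sin3b, Hdac1, Hdac2, Kdm1a and Ehmt2. Array probes were assigned to these 8 genes by transcript accession, and 9 probes were found for 7 of them, out of 30367 non-control probes and 15155 named genes. Rcor1 was not analysed here. For each gene the probe with the highest mean log2 signal over all arrays stands for the gene. The 2 additional probes of Hdac1 serve as a check.

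Hippocampal neurons from Wistar rat embryos of embryonic day 18 were kept in culture for 14 to 15 days and then placed for 2 h in a glucose-free buffer with 25 mM sucrose under anaerobic conditions, a treatment called oxygen and glucose deprivation (OGD) that is used as a dish model of global brain ischemia. Control cultures (Ctrl) received the same buffer with 25 mM glucose, in place of sucrose, in normal air with CO2. Both were returned to their conditioned medium and harvested 7 h or 24 h later, which gives the 4 groups Ctrl 7h, OGD 7h, Ctrl 24h and OGD 24h with 3 arrays each. Whole cultures were profiled, so fewer cells of a type and less RNA per cell cannot be told apart in any value below. The question put to these genes was whether the transcripts of REST and of the enzymes it recruits were at another level after OGD than in control cultures of the same time.

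REST is a zinc finger protein that binds a conserved element in many neuronal genes and keeps them silent outside neurons. Its amino-terminal part recruits SIN3A or SIN3B with the histone deacetylases HDAC1 and HDAC2, and its carboxy-terminal part recruits CoREST (Rcor1), which carries the histone demethylase LSD1 (Kdm1a), the same deacetylases and the histone methyltransferase G9a (Ehmt2). REST is kept low in mature neurons and is known to be induced in vulnerable hippocampal neurons after ischemia.

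The stretches upstream of the transcription start of Rest, Sin3a and Ehmt2 are shown because these are the 3 genes whose OGD and Ctrl arrays did not overlap at 7 h. Each run holds the 250 bases before the start, read 5′ to 3′ on the strand of the gene, from the RefSeq annotation of rat assembly GRCr8. They lie at chr14:31233452-31233701 (minus strand), chr8:66381533-66381782 (plus strand) and chr20:3940711-3940960 (minus strand). Capitals mark the GC box GGGCGG, the CCAAT box CCAAT and the core of the hypoxia response element ACGTG, each searched on both strands.
Rest: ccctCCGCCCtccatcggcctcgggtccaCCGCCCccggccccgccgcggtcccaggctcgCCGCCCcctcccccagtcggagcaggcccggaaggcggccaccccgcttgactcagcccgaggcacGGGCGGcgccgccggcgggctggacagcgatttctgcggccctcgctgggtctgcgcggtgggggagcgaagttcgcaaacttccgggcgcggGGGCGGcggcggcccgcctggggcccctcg
Sin3a: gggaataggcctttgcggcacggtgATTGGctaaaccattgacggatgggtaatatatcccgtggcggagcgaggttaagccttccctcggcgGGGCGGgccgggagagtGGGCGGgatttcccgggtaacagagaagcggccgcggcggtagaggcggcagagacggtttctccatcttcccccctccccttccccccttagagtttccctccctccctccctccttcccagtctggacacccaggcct
Ehmt2: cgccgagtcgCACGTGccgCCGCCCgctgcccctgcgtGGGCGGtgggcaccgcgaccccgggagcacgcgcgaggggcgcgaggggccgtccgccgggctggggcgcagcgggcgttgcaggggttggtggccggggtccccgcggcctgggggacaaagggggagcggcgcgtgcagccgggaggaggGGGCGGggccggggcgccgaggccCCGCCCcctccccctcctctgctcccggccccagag
The windows searched ran from 250 bases before to 50 bases after the start, and 33469 promoters of that length were searched in the same way. Rest held 5 GC boxes, Sin3a held 2 and Ehmt2 held 5, of which 4 lie in the printed run, and 33.1% of all promoters held at least 1. A CCAAT box was found in Sin3a but in neither of the other two, against 37.5% of all promoters. Ehmt2 held the letters ACGTG on both strands at 1 overlapping place, whereas Rest and Sin3a held none, against 19.3% of all promoters. The RE1 element that REST itself binds has a left and a right core, searched as TTCAGCACC and GGACAGCGC, and neither was found in any of the 8 genes' windows (0.356% and 0.415% of all promoters held them). The Rest window was 80.3% G and C with 44 CpG dinucleotides and the Ehmt2 window 82.7% with 41, above the median promoter with 51.7% and 7. These matches describe letters only and say nothing of binding.

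The 12 arrays carried 78.3% to 87.1% of non-control spots well above background. The median spot intensity lay between 402 and 660 in Ctrl arrays and between 131 and 546 in OGD arrays. The lowest belonged to OGD 24h replicate 1, which also had the lowest median correlation with the other arrays (0.960, others 0.969 to 0.985) and is therefore named wherever a value rests on it. Each of the 6 slides carried the Ctrl and the OGD array of 1 time and replicate number. Where the groups of a gene do not overlap, all its slides differ in the same direction by construction. Such a slide count adds nothing to the lack of overlap. The OGD arrays of replicate 1 at both times and of replicate 2 at 7 h were scanned in an earlier session of the same day than the Ctrl arrays of their slides. The 7 h and the 24 h arrays were scanned on different days. All levels below are log2 intensities relative to the median of the same array, and a difference is OGD minus Ctrl on that scale. An array probe has its own brightness, so levels of different genes are not compared.

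A gene is said to pass here when its unadjusted p from limma, a linear model fitted to all probes, was under 0.05. Of the 7 genes with a probe, Sin3a passed as higher and Ehmt2 as lower after OGD at 7 h. Sin3a was named from the study's lists of genes changed on these arrays, so its call was favoured in advance. With Sin3a set aside, only Ehmt2 passed at 7 h. Among all probes 4.79% were higher and 7.03% lower by that rule, 11.8% in either direction. At 24 h only Ehmt2 passed, as a lower transcript, and none was higher, where 7.51% of all probes were higher and 6.19% lower (13.7% in either direction). No gene also reached the fold of 2 that the study asked for, which 3.74% of all probes did at 7 h and 5.67% at 24 h. Sin3a at 7 h stood at that limit, with a log2 difference of 1.00 here against 1.02 on the authors' normalized values, 1.07 after quantile normalization and 1.11 with 75th percentile centring, each of which is past a fold of 2. No probe of the array passed a Benjamini-Hochberg adjusted p of 0.05 in either comparison by limma, the lowest adjusted p being 0.117 at 7 h and 0.209 at 24 h, against 3590 and 4160 probes at an unadjusted p under 0.05. The Ctrl and OGD arrays did not overlap for 3 of the 7 genes at 7 h (Rest, Sin3a, Ehmt2) and for 2 of the 7 at 24 h (Hdac1, Ehmt2), where 26.1% and 17.9% of all probes did not overlap. The entry of Sin3a in this count was favoured in the same way.

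**Figure D1:**
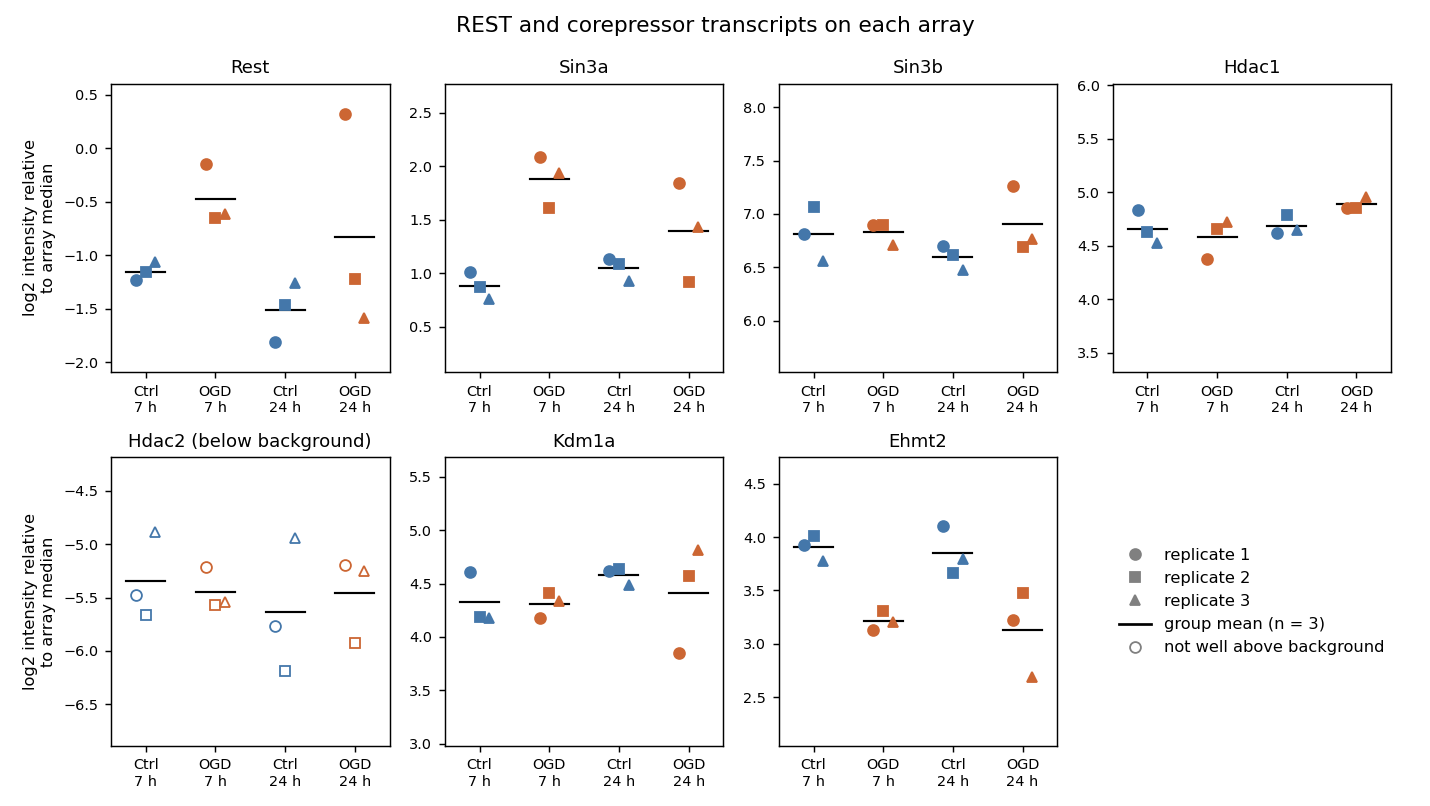
The log2 intensity relative to the array median (y axis) is plotted for each of the 12 arrays by group (x axis), with marker shapes for replicates 1 to 3, a line for the group mean and open markers where the probe was not well above background. All panels span the same number of log2 units. Rest and Sin3a of the OGD 7h arrays lie above all Ctrl 7h arrays, Ehmt2 lies below its controls at both times, and the mean of Rest in OGD 24h is pulled up by replicate 1 at 0.32.

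Rest itself was at -1.23, -1.16 and -1.07 in the Ctrl 7h arrays of replicates 1, 2 and 3, and at -0.15, -0.65 and -0.62 in the OGD 7h arrays. All 3 OGD 7h arrays were thus above all 3 controls, and the OGD array of replicate 1 was the highest. The group means were -1.15 ± 0.08 and -0.47 ± 0.28 (SD, n = 3), a difference of 0.68 (SE 0.41, 95% interval -0.23 to 1.59) or a fold of 1.60. It did not pass (adjusted p = 0.519). The Ctrl and OGD arrays of the same slide differed by 1.08, 0.51 and 0.45, higher in 3 of 3 slides. Only the slide of replicate 3 was scanned in 1 session. The scan sessions that held both OGD and Ctrl arrays include 1 OGD 7h array, that of replicate 3, which a fit has to assume to vary like the other groups. Over the arrays of these shared sessions the difference of Rest was 0.54.

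Whether Rest passed at 7 h depended on which arrays set the spread. In the fit of all 12 arrays the wide OGD 24h group enters the shared variance, and without OGD 24h replicate 1 the same difference of 0.68 passed (adjusted p = 0.117). It also passed by the methods' t-test and by limma on the 7 h arrays alone, over replicates 2 and 3, and with array quality weights, where the difference was 0.56 (adjusted p = 0.0438). These were 5 of 27 alternatives, over which the adjusted p ran from 0.0438 to 0.952. The weights were estimated from these same arrays. Many alternatives, such as the slide blocks or leaving out an array of the other time, cannot move a difference and change only its spread. The counts of alternatives here and below are therefore not counts of separate checks. Before centring, the probe read 125, 96.5 and 127 intensity units in Ctrl 7h and 109, 115 and 132 in OGD 7h, and those readings overlap. The OGD difference of Rest at 7 h is therefore a difference relative to the array median, which was lower on each OGD 7h array than on the Ctrl array of its slide. Scaled to the spike-in RNA instead, it was -0.10, on a scale where the median of all probes was at -0.83.

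At 24 h Rest stood at -1.81, -1.46 and -1.26 in Ctrl and at 0.32, -1.23 and -1.59 in OGD. The OGD array of replicate 1 was far above every other array, while the remaining pair lay within or next to the control range. The means were -1.51 ± 0.28 and -0.83 ± 1.01 (SD, n = 3), and the difference of 0.68 (SE 0.41, 95% interval -0.23 to 1.59, adjusted p = 0.467) rests on that array. Without it the difference was 0.10. Within slides the differences were 2.13, 0.24 and -0.33, higher in 2 of 3. Leaving out OGD 24h replicate 3 instead gave 1.06, which passed, the only 1 of 27 alternatives in which Rest did so at 24 h. With spike-in scaling the difference was -0.34, where the median of all probes was at -1.01.

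Sin3a encodes the scaffold that docks the deacetylases onto REST. Its probe is named through the accession that the study's supplementary tables pair with this symbol. Those tables list genes the study had selected for a change on these arrays, so that Sin3a is measured here at all is not independent of its response at 7 h. Sin3a was at 1.01, 0.87 and 0.76 in Ctrl 7h and at 2.09, 1.61 and 1.94 in OGD 7h. The groups did not overlap, and every OGD array was clear of the highest control. From 0.88 ± 0.13 to 1.88 ± 0.24 (SD, n = 3) the difference was 1.00 (SE 0.24, 95% interval 0.47 to 1.52), a fold of 1.99, which passed unadjusted (adjusted p = 0.240). It was higher in 3 of 3 slides, which follows from groups without overlap, by 1.08, 0.74 and 1.17. The difference was 1.05 over the arrays of shared scan sessions, with 1 OGD array. It passed in 26 of 27 alternatives, with an adjusted p from 0.00711 with array quality weights to 0.908. In many of these, such as the slide blocks, the difference of Sin3a stays at 1.00 by construction. Before centring its readings overlapped, with 594, 395 and 451 units in Ctrl and 515, 552 and 775 in OGD. Scaled to the spike-in RNA, the difference was 0.22, the alternative in which it did not pass.

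At 24 h Sin3a was at 1.13, 1.08 and 0.93 in Ctrl and at 1.84, 0.92 and 1.43 in OGD. The OGD array of replicate 2 was below all controls and the other two were above them. The difference of 0.35 (SE 0.24, 95% interval -0.17 to 0.87) did not pass (adjusted p = 0.515). It was 0.13 without OGD 24h replicate 1, and 0.59 without OGD 24h replicate 2, where it passed.

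Sin3b, the other SIN3 scaffold gene, did not pass at either time. Its levels ran from 6.56 to 7.06 in Ctrl 7h and from 6.71 to 6.90 in OGD 7h, and the ranges lie inside one another. The difference at 7 h was 0.02 (95% interval -0.43 to 0.47, adjusted p = 0.973). At 24 h Ctrl ran from 6.48 to 6.70 and OGD from 6.69 to 7.26, a difference of 0.31 (95% interval -0.15 to 0.76, adjusted p = 0.511) that was higher in 3 of 3 slides and was 0.13 without OGD 24h replicate 1. The upper ends of these intervals, 0.47 and 0.76, bound how much higher Sin3b could have been in OGD.

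Hdac1, one of the class I deacetylases shared by the SIN3 and CoREST complexes, was at 4.83, 4.62 and 4.52 in Ctrl 7h and at 4.38, 4.65 and 4.72 in OGD 7h on its brightest probe (A_64_P055758). Those groups overlapped, and the difference was -0.08 (95% interval -0.44 to 0.29, adjusted p = 0.867). At 24 h the same probe was at 4.62, 4.79 and 4.65 in Ctrl and at 4.85, 4.85 and 4.96 in OGD. The 24 h groups did not overlap, and the difference was 0.20 (SE 0.17, 95% interval -0.16 to 0.57, adjusted p = 0.583). It passed in 4 of 27 alternatives, which were the methods' t-test, quantile normalization (0.31), normexp background correction (0.28) and the mean over the 3 probes (0.36).

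The 3 Hdac1 probes disagreed in part. Probe A_64_P122452 differed by 0.32 at 7 h (adjusted p = 0.605) and passed at 24 h with 0.58 (SE 0.24, adjusted p = 0.330), where Ctrl was at 3.41, 3.53 and 3.47 and OGD at 4.59, 3.74 and 3.84. Its slides differed by 1.18, 0.21 and 0.36 at 24 h, so the size rests largely on OGD 24h replicate 1. That value also enters the mean over the 3 probes given above. Probe A_64_P118296 was lower in all slides at 7 h, by -0.34, -0.21 and -0.32, and higher in all slides at 24 h, by 0.41, 0.25 and 0.23. All 3 probes were thus above their controls at 24 h on every slide, whereas at 7 h their mean differences were -0.08, 0.32 and -0.29. A_64_P122452 also separated the control groups, with 4.24 ± 0.24 at 7 h and 3.47 ± 0.06 at 24 h (SD, n = 3), a difference of -0.77 that passed (adjusted p = 0.196), while the other probes were at 0.03 and 0.13 and did not pass.

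Hdac2, the paralog of Hdac1, was not well above background on any of the 12 arrays with its 1 probe (A_64_P000751), so no difference is given for it.

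Kdm1a, the LSD1 demethylase of the CoREST complex, was at 4.61, 4.19 and 4.18 in Ctrl 7h and at 4.17, 4.41 and 4.34 in OGD 7h, and at 4.62, 4.63 and 4.49 in Ctrl 24h and at 3.85, 4.57 and 4.81 in OGD 24h. The groups overlapped at both times, and OGD 24h replicate 1 was the lowest of all arrays. The differences were -0.02 at 7 h (95% interval -0.56 to 0.53, adjusted p = 0.983) and -0.17 at 24 h (95% interval -0.71 to 0.37, adjusted p = 0.786), the latter 0.11 without that array.

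Ehmt2, the G9a methyltransferase that places a repressive mark on histone H3, was the member lower at both times. Its levels were 3.92, 4.01 and 3.78 in Ctrl 7h and 3.13, 3.31 and 3.20 in OGD 7h. All OGD arrays were below all controls, with little spread in either group. The means of 3.90 ± 0.12 and 3.21 ± 0.09 (SD, n = 3) differ by -0.69 (SE 0.22, 95% interval -1.17 to -0.20, adjusted p = 0.293), which passed and is 1.61-fold lower in OGD. Within slides the differences were -0.79, -0.70 and -0.57. Over shared scan sessions, with 1 OGD array at 7 h, the value was -0.70, and over replicates 2 and 3 it was -0.64, neither of which passed. It passed in 24 of 27 alternatives (adjusted p from 0.0130 with array quality weights to 0.890).

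At 24 h Ehmt2 was at 4.11, 3.66 and 3.79 in Ctrl and at 3.23, 3.48 and 2.69 in OGD. Again no OGD array reached the control range, and replicate 3 was the lowest. The means were 3.85 ± 0.23 and 3.13 ± 0.40 (SD, n = 3), a difference of -0.72 (SE 0.22, 95% interval -1.21 to -0.24, adjusted p = 0.275) that passed and was 1.65-fold lower in OGD. Slides differed by -0.88, -0.18 and -1.11, lower in 3 of 3. It passed in 24 of 27 alternatives (adjusted p from 0.121 to 0.710), among them the shared scan sessions with -0.77, but not by the methods' t-test on the 24 h arrays nor over replicates 2 and 3 (-0.65). With array quality weights it was -0.36, which passed. Before centring Ehmt2 read 1061 to 1864 units in OGD against 3472 to 4460 in Ctrl at 7 h, and 704 to 1961 against 2788 to 3231 at 24 h. Every OGD 7h array had a lower median than every Ctrl 7h array, so an unchanged gene also reads lower there. Sin3b, with a difference of 0.02 at 7 h, read 14394 to 21599 units in OGD against 25154 to 33164 in Ctrl. With spike-in scaling the Ehmt2 differences were -1.47 and -1.75, and neither passed on that scale.

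**Figure D2:**
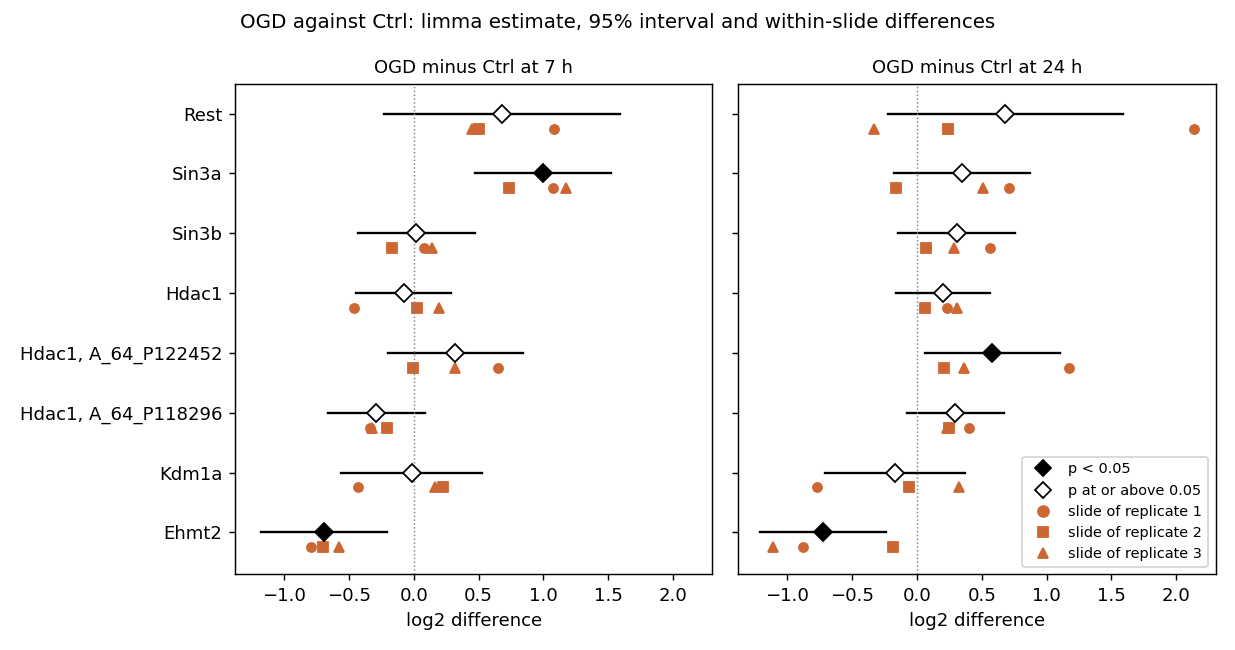
The log2 difference OGD minus Ctrl (x axis) at 7 h and 24 h is drawn as a diamond with its 95% interval from limma for each probe above background, filled where the unadjusted p is under 0.05, with the 3 within-slide differences below it. The intervals of Sin3a at 7 h (1.00) and Ehmt2 at both times (-0.69 and -0.72) lie clear of 0. Their slides share 1 sign, though the replicate 2 slide of Ehmt2 at 24 h is at only -0.18. The slides of Rest at 24 h spread from -0.33 to 2.13.

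The OGD differences at 24 h and at 7 h were compared directly in the same fit. None of the 7 representative probes passed (3.58% of all probes did, at an unadjusted p). For Sin3a the difference between the times was -0.65 (SE 0.33, 95% interval -1.39 to 0.10), and it was -0.87 without OGD 24h replicate 1, where it passed. Rest had 0.00 (SE 0.58) and Ehmt2 -0.03 (SE 0.31). The 95% interval for Rest, -1.28 to 1.28, leaves room for a large difference in either direction. Since the times were scanned on different days and lie on different slides, a difference between the times cannot be told apart from one between those days.

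In the control cultures alone, no representative probe passed between 24 h and 7 h (14.7% of all probes did). Rest differed by -0.36 (SE 0.41, adjusted p = 0.710), Sin3a by 0.16 (adjusted p = 0.772) and Ehmt2 by -0.05 (adjusted p = 0.937). The same confounding with slide and scan day holds for these values.

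**Figure D3:**
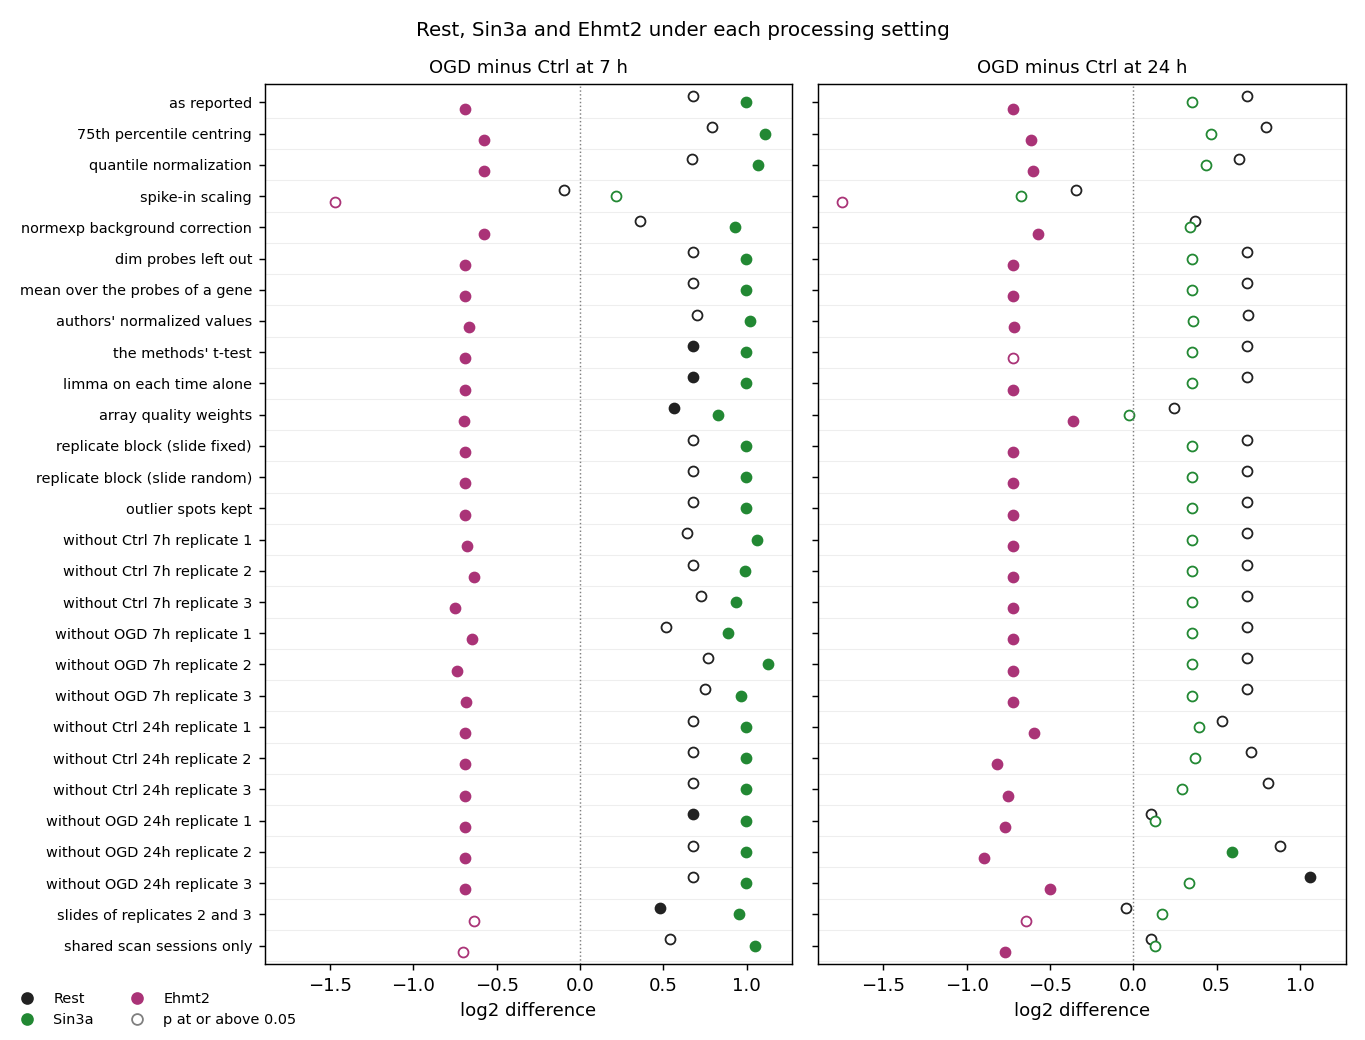
The log2 difference OGD minus Ctrl (x axis) of Rest, Sin3a and Ehmt2 is plotted for each processing setting (y axis), filled where the unadjusted p is under 0.05. Sin3a at 7 h and Ehmt2 at both times keep their sign in every setting, Rest is near 0 or below with spike-in scaling, and its 24 h value falls to 0.10 without OGD 24h replicate 1.

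Other genes of the pathway were read from 4 lists. Of 14 additional genes of the LSD1-CoREST complex 11 had a probe, and Zmym3, a zinc finger subunit of that complex, was the only one lower at either time, by -0.80 (SE 0.31, adjusted p = 0.359) at 7 h and -0.90 (SE 0.31, adjusted p = 0.295) at 24 h. None was higher. The next largest differences were those of Ctbp2, a corepressor that joins CoREST, with 0.55 (adjusted p = 0.441) at 7 h, and of Hmg20b, a DNA-bending subunit, with 0.47 (adjusted p = 0.472) at 24 h. Rcor3, a CoREST paralog, differed between the times by -0.73 and passed unadjusted, with 0.44 at 7 h and -0.29 at 24 h. That call was kept in 10 of 23 alternatives and in 3 of 12 with an array left out, and the 24 h value was -0.14 without OGD 24h replicate 1. The median difference of the list was 0.08 at 7 h and -0.20 at 24 h, beside -0.11 and -0.03 over all named genes. Gfi1 and Gfi1b enter these medians but were not well above background on any array. Their differences were 0.24 and 0.22 at 7 h and 0.09 and 0.01 at 24 h. Only 9 of the 11 genes were well above background on all arrays, so the sign of the 7 h median is not read. The call of Zmym3 was kept in 16 of 23 alternatives at each time. Over the arrays of shared scan sessions Zmym3 differed by -0.83 at 7 h, with 1 OGD array. At 24 h those sessions hold all arrays but OGD 24h replicate 1. Without that array Zmym3 differed by -0.66 at 24 h and did not pass.

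Among 16 additional genes of the SIN3 and deacetylase complexes 9 had a probe. Sinhcaf, a subunit of the SIN3 complex, was at -1.92 in Ctrl 7h and -0.77 in OGD 7h on average, a difference of 1.15 (SE 0.33, adjusted p = 0.270, higher in 3 of 3 slides), and the difference at 24 h was 0.51 (adjusted p = 0.493). The 7 h call was kept in 22 of 23 alternatives. Hdac3, another class I deacetylase, was lower at 7 h by -0.64 (SE 0.27, adjusted p = 0.391) and differed by -0.45 (adjusted p = 0.463) at 24 h, the latter -0.12 without OGD 24h replicate 1. Its 7 h call was kept in 16 of 23 alternatives. Over the shared scan sessions, with 1 OGD array, it was -0.38 and did not pass. One gene was thus higher and 1 lower at 7 h, and none passed at 24 h. The median was -0.10 at 7 h and 0.0078 at 24 h.

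Of 20 further chromatin genes linked to REST 13 had a probe, and none passed at 7 h. At 24 h 2 were higher and none lower. They were Cdyl, a chromodomain protein that bridges REST to G9a, with 0.73 (SE 0.27, adjusted p = 0.312), and Ezh2, the methyltransferase of the Polycomb complex, with 0.51 (SE 0.21, adjusted p = 0.342), each on 3 of 3 slides. Suv39h1, another histone methyltransferase, had the largest difference of the list at 7 h, -0.61 (adjusted p = 0.428). The medians were -0.06 and -0.13. Cdyl had 0.41 at 24 h without OGD 24h replicate 1 and did not pass. The shared scan sessions hold the same 24 h arrays and so gave the same difference. The calls of Cdyl and Ezh2 were kept in 16 and 14 of 23 alternatives. The Ezh2 call was lost with the replicate block and over the shared scan sessions (0.53), and with spike-in scaling Cdyl was at -0.30 and Ezh2 at -0.52.

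The last list holds genes that act on REST protein or its splicing, 12 of 16 with a probe, and none passed as higher at either time. Htt, whose product holds REST in the cytoplasm, was lower at 7 h by -0.95 (SE 0.18, adjusted p = 0.177) and at 24 h by -0.42 (SE 0.18, adjusted p = 0.356), on 3 of 3 slides each. The 7 h call was kept in 22 of 23 alternatives, whereas the 24 h call was kept in 6 of 23 and lost with the replicate block. Prickle1, a REST-binding protein, differed by -0.76 (adjusted p = 0.611) and -0.91 (adjusted p = 0.480), and Ctdsp1, a phosphatase that stabilises REST, by 0.21 (adjusted p = 0.736) and 0.44 (adjusted p = 0.414). Btrc and Csnk1e neither passed nor were among the 2 largest differences of the list at either time, and are given besides. The ubiquitin ligase gene Btrc, which marks REST for degradation, differed by -0.33 (adjusted p = 0.598) and -0.34 (adjusted p = 0.523). Csnk1e, a casein kinase gene, differed by 0.73 (adjusted p = 0.432) and -0.17 (adjusted p = 0.850). List medians were -0.16 and -0.19.

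**Figure D4:**
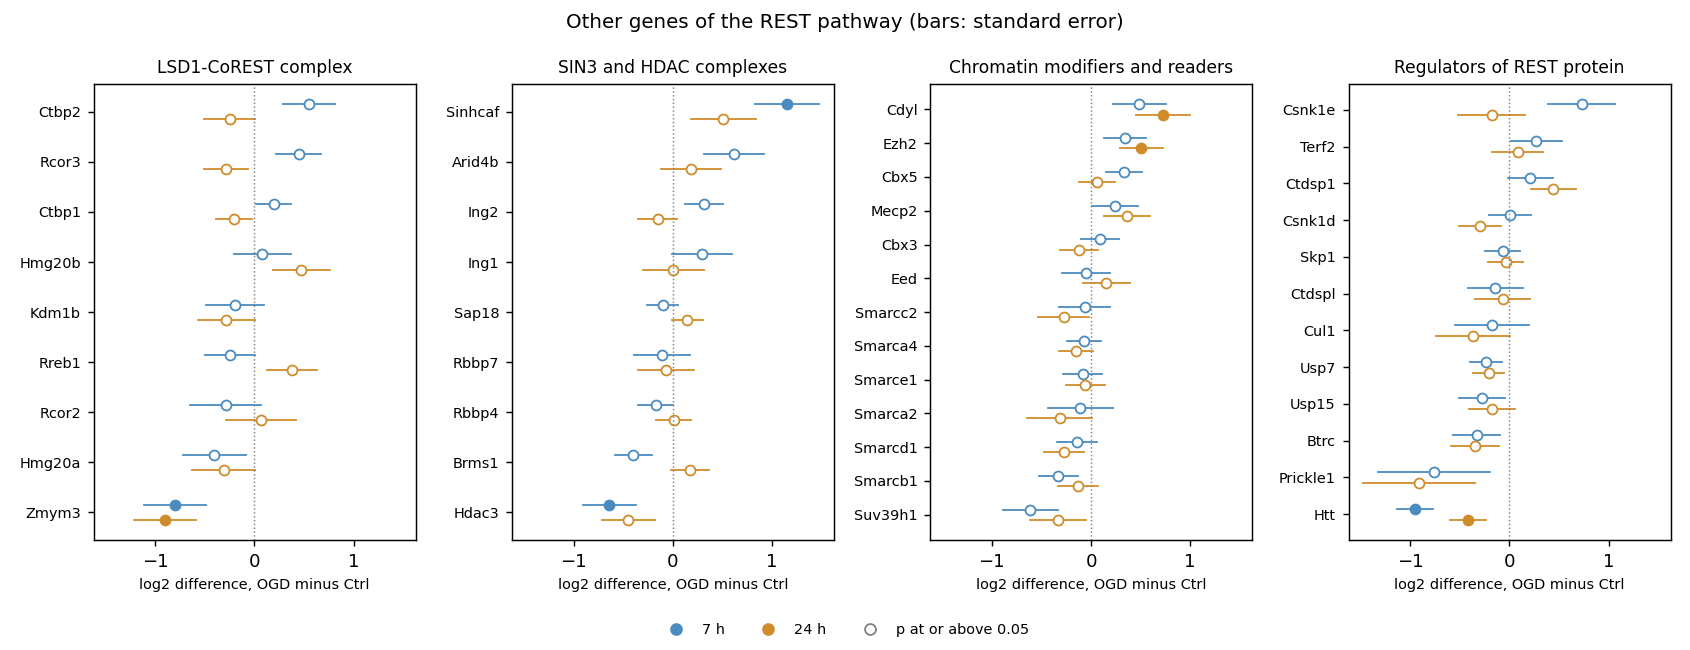
Log2 differences OGD minus Ctrl (x axis) with standard errors are shown at 7 h and 24 h for the pathway genes of the 4 lists that were well above background on all arrays and not saturated on most, filled where the unadjusted p is under 0.05. Sinhcaf stands highest at 7 h (1.15) and Htt lowest (-0.95).

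Markers of the cell types that such cultures may hold were read on the same arrays. All 16 neuron markers were well above background on every array, as the label of the cultures asks, and 10 of 11 astrocyte markers were too. At 24 h 10 of the 16 neuron markers were lower and none higher, and at 7 h 2 were lower, beside 6.19% and 7.03% of all probes. Without OGD 24h replicate 1 the counts were 4 lower at 24 h and 6 at 7 h, and over replicates 2 and 3 they were 3 and 3, so these counts give no order of the times. The brightest neuron markers, Stmn2 and Gap43, were saturated on 6 and 5 arrays, and a saturated spot rises relative to the median of a dimmer array, so sums were taken over the markers saturated on no array. The 14 neuron markers left summed to 379 to 514 times the array median in Ctrl 7h and 303 to 436 in OGD 7h, and to 372 to 582 and 167 to 373 at 24 h. They were lowest in OGD 24h replicate 1, the array with the highest Rest level.

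At 7 h, where Rest and Sin3a were above their controls, 3 of 11 astrocyte markers were higher, against 4.79% of all probes. They were Aldoc and Fabp7, the brightest, saturated on 11 arrays each, and Slc1a3, saturated on 5 and named after its value was seen. Without OGD 7h replicate 1, over replicates 2 and 3, and over the shared scan sessions none was higher. The 7 astrocyte markers saturated on no array summed to 342 to 378 in Ctrl 7h and 357 to 461 in OGD 7h, and to 306 to 515 and 193 to 558 at 24 h, with overlap at both times.

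Microglia markers summed to 15.7 to 16.4 in Ctrl 7h and 15.9 to 28.8 in OGD 7h, and to 21.0 to 25.4 and 25.2 to 35.4 at 24 h, over 11 of 12 markers, with Ptprc and Fcgr3a not well above background on any array. Cx3cr1, the brightest, was higher at 7 h by 1.02 (adjusted p = 0.263), and Cd68 at 24 h by 0.96 (adjusted p = 0.332). Thus 1 of 12 markers was higher at each time, beside 4.79% of all probes at 7 h and 7.51% at 24 h. Over replicates 2 and 3 none passed at either time, while without OGD 7h replicate 1 the count at 7 h stayed at 1. Without OGD 24h replicate 1 no microglia marker passed at 24 h.

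The oligodendrocyte lineage sums overlapped at both times, with the brightest markers Olig1 at -0.16 and 0.29 and Olig2 at -0.14 and 0.48, the last of which passed unadjusted. Of 12 markers 3 were lower and none higher at 7 h, beside 7.03% and 4.79% of all probes. These were Cspg4 by -1.07, Sox10 by -0.96 and Gpr17 by -0.34, named after their values were seen. None of them passed as lower without OGD 7h replicate 1. At 24 h 1 was higher, beside 7.51% of all probes, and none without OGD 24h replicate 1.

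Vascular cell and fibroblast markers summed to 39.0 to 142 in Ctrl 7h and 60.6 to 184 in OGD 7h, and to 30.9 to 139 and 128 to 233 at 24 h. On the 24 h slide of replicate 1 their sum was 30.9 in Ctrl and 142 in OGD. Col1a2 and Col1a1, the brightest, differed by 0.86 and 0.83 at 7 h and by 1.49 (adjusted p = 0.372) and 1.50 (adjusted p = 0.404) at 24 h, without passing. At 7 h 3 of the 12 markers were lower and none higher, beside 7.03% and 4.79% of all probes. These were the endothelial genes Cldn5 and Pecam1 and the mural cell gene Rgs5, well above background on 6, 9 and 1 of the 12 arrays, so their differences are not given. At 24 h 2 were higher, beside 7.51% of all probes, Pdgfrb by 1.34 (adjusted p = 0.269) and Flt1, which was well above background on 9 arrays. These 5 markers were named after their values were seen. Without OGD 24h replicate 1, 1 marker of the list was higher and 1 lower at 24 h. The list median at 24 h was 0.24 with that array and -0.09 without it. Tek was not well above background on any array. The part of these cell types in the levels of Rest, Sin3a and Ehmt2 was not tested.

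The genes whose profile over the 12 arrays was most like that of Rest were Iqgap1, Rcan3, Trip6, Ptbp1 and Ctnnd1, by the root mean square difference of mean-centred log2 levels among 10900 genes well above background on all arrays. It was 0.17, 0.17, 0.18, 0.18 and 0.20 for these genes, against 0.76 for the median gene. Rest itself varied with an SD of 0.62 over the arrays, and its high value in OGD 24h replicate 1 enters this measure. Their OGD differences were 0.36 to 0.88 at 7 h and 0.42 to 0.96 at 24 h. The choice by profile used the OGD arrays too, so differences like those of Rest follow from it. The partner genes stood lower in that order of 10900 genes, with Sin3a at 511, Sin3b at 973, Hdac1 at 3006, Kdm1a at 6533 and Ehmt2 at 7039.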

How the data were processed

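Cultured rat hippocampal neurons were profiled on 12 one-color Agilent rat arrays, 3 per group. The authors read the slides with Feature Extraction 10.5.1.1, and the deposited intensity of each spot is background-subtracted and not normalized between arrays. The authors' log2 values, centred per array in BRB-ArrayTools 3.8.1, differ from the log2 of these intensities by 1 constant per array (within 0.01) and served as an alternative.

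Spots flagged as outliers were dropped, log2 taken, spots of a probe averaged and the array median subtracted. RefSeq accessions (GRCr8 table) named 18004 probes, the study's tables named 1 (Sin3a), and 12362 stayed unnamed. All 4 groups entered 1 fit in limma 3.58.1 (R 4.3.3, eBayes, two-sided), with a call at an unadjusted p under 0.05 and Benjamini-Hochberg adjustment over 30367 probes. Pathway genes past that p, the 2 largest differences per list and time, and the 2 brightest genes of each marker list are named. Btrc and Csnk1e are named besides, and Gfi1 and Gfi1b because they were below background. Some genes of these lists are not reported here. The members and lists were chosen with earlier results of these data known. The replicates are separate cultures per the study's methods, and their number limits the precision. The alternatives were other centrings and normalizations (75th percentile, quantile, spike-in, normexp with an offset of 50), the probe filter, the mean over probes, the methods' t-test, each time alone, array weights, slide blocks and leaving out each array. Fits of replicates 2 and 3 and of the shared scan sessions were added after seeing the data.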

Additional observations from a re-analysis of the deposited data

Results flagged for a closer look

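The Hdac1 probe A_64_P118296 had an OGD difference that went one way at 7 h and the other way at 24 h. The difference between the times was 0.585 on the log2 scale (SE 0.24, adjusted p = 1.00 in limma), and it passed unadjusted, but no probe passed an adjusted p of 0.05 for it (1086 did at an unadjusted p under 0.05). At 7 h the mean difference was -0.29 (adjusted p = 0.513), lower in 3 of 3 slides, and at 24 h it was 0.30 (adjusted p = 0.449), higher in 3 of 3 slides. The other Hdac1 probes gave 0.28 and 0.26, without passing, for the same difference between the times.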

How the results depend on the processing

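Sin3a at 7 h and Ehmt2 at both times kept their direction under every alternative run. In many of these the difference could not change, as with the slide blocks, the methods' t-test or an array of the other time left out. Spike-in scaling, which rests on 1 probe that itself varied widely between arrays, removed all member calls (0 higher and 0 lower at 7 h, 0 lower at 24 h) and turned the difference of Rest to -0.10 at 7 h and -0.34 at 24 h, that of Sin3a at 24 h to -0.67, of Sin3b to -0.76 and -0.72, of Hdac1 at 24 h to -0.82 and the difference between the times of Rest to -0.25. Rest at 7 h passed by the methods' t-test (0.68), by limma on that time alone (0.68), with array weights (0.56) and over replicates 2 and 3 (0.48), so that 2 members were higher in each of these 4. Array weights brought Rest, Sin3a and Ehmt2 at 7 h under an adjusted p of 0.05. They also did so at 7 h for Zmym3, Sinhcaf, Hdac3 and Htt, but not for Rcor3, Cdyl and Ezh2. The weights were estimated from these same arrays and ran from 0.105 to 8.98. The share of all probes under that limit with weights is not given here. Over replicates 2 and 3 none was lower at either time, Rest at 24 h was -0.0455 and its difference between the times -0.52. Over the shared scan sessions 0 members were lower at 7 h, and the difference of Rest between the times was -0.43. At 24 h 1 member (Hdac1) was higher after quantile normalization, after normexp, as the mean over probes and by the methods' t-test, which called 0 lower. With 1 array left out, Rest ran from 0.52 to 0.77 at 7 h and from 0.10 to 1.06 at 24 h, the count of members higher from 1 to 2 at 7 h and from 0 to 1 at 24 h, and the count lower stayed at 1.

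Differences near 0 changed sign without a call. Sin3b at 7 h was -0.0753 (quantile), -0.0280 (normexp), -0.0931 (array weights), -0.00963 (replicates 2 and 3), -0.11 (scan sessions) and -0.11 to 0.14 with an array left out. Hdac1 at 7 h was 0.0359 (75th percentile), 0.00964 (quantile), 0.11 (replicates 2 and 3), 0.0599 (scan sessions) and -0.15 to 0.0266 with an array left out. Kdm1a at 7 h was 0.10 (75th percentile), 0.0866 (quantile), 0.12 (normexp and array weights), 0.00912 (the authors' values), 0.19 (replicates 2 and 3), 0.0167 (scan sessions) and -0.0874 to 0.13 with an array left out, and at 24 h it was 0.13 (replicates 2 and 3), 0.11 (scan sessions) and -0.37 to 0.11. Sin3a at 24 h was -0.0260 with array weights. Between the times, Rest was -0.0378 (quantile), -0.0185 (the authors' values), -0.32 (array weights) and -0.58 to 0.38 with an array left out, Kdm1a was 0.10 (scan sessions) and -0.35 to 0.13, and Ehmt2 was 0.00406 (normexp), 0.33 (array weights) and -0.21 to 0.19. Causes were not tested. Hdac2 was left out of these comparisons as below background.

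Arrays of 1 slide deviated together with a correlation between -0.19 and 0.31, and 5 of 12 arrays correlated best with their own number, so the numbers were not taken to pair the cultures. With the replicate block (slide fixed) the differences stayed as given, 0.68 for Rest at both times, 1.00 for Sin3a at 7 h and -0.69 and -0.72 for Ehmt2, with adjusted p = 0.590 and 0.538, 0.397, 0.437 and 0.372 in that order, and no member call changed. It ended the calls of Ezh2 and Htt at 24 h and of Rcor3 between the times. The files hold no mean signal, so normexp used the median signal. With an SD of 1.01 among the OGD 24h arrays the 24 h difference of Rest is not resolved, and Hdac2 cannot be read at this signal.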
